A study of Gallus gallus with 24 samples.

Results

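SAN tissue was compared with atrial tissue after 14 hours in culture without drug. The comparison used the 4 vehicle-treated SAN pools against the 4 vehicle-treated atrial pools, 8 of the 24 libraries of the study, over all 12422 genes that carry a symbol in the deposited table. The same difference in freshly isolated tissue (t0, again 4 SAN pools and 4 atrial pools) was used to find which differences appeared only in culture. Both tissues were dissected from chick embryos at Hamburger Hamilton stage 30, no transgene or deletion was involved, and each pool held 5 tissue preparations. Cultured pieces were kept in DMEM/F12 medium with serum and antibiotics, to which water was added as the vehicle, while t0 pieces were never cultured. The remaining 8 libraries came from tissue given the RhoA activator CN03. They entered the fit as groups of their own but no comparison here. Whole tissue pieces were sequenced, so fewer cells of a type and less RNA per cell cannot be told apart in any value below.

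The SAN starts the heartbeat. Its cardiac pacemaker cells (CPCs) depolarize spontaneously, carried by the funny current of HCN channels, by calcium channels that open at low voltage, and by cyclic release of calcium from internal stores. Their identity depends on a small set of regulators, among them the homeobox genes SHOX2 and ISL1 and the T-box genes TBX3 and TBX18. Working atrial muscle depends on NKX2-5 and is marked by fast conduction through sodium channels and connexins, secretion of natriuretic peptide, and densely packed sarcomeres. The SAN also lies in a matrix-rich region with many non-myocardial cells. Whether these differences persist once a tissue piece is removed from the beating heart is what the comparison after culture asks.

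Values are normalized log2 expression as the authors deposited them, and the number of reads behind each is unknown, so precision rests on the spread between pools. Libraries of a group correlated across genes with r of at least 0.9775. The lowest value in the table, -5.87, marks genes at the floor of the scale, and no fold is given against a group that lies there in full. Differences are log2 fold changes (log2FC) of SAN over atria from limma, fitted to all 24 libraries, with p-values adjusted over all genes by the Benjamini-Hochberg method. A gene was called when its adjusted p was below 0.05 and its log2FC was above 1 in either direction. The p-values and standard errors (SE) rest on the spread between pools within groups, each pool handled as an independent replicate. That spread was estimated for each gene over all 24 libraries, so an SE need not match the spread of the pools printed beside it.

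After culture, 952 genes were higher in SAN (7.66% of all genes tested) and 418 were higher in atria (3.36%), in total 1370 genes (11.0%). At t0 the counts were 852 (6.86%) and 356 (2.87%), in total 1208 genes (9.72%). The excess of SAN-enriched calls depended on how the libraries were scaled. Quantile normalization gave 719 and 630 calls after culture, so the share of calls that were higher in SAN was 53.3%, against 69.5% on the deposited scale. Pools did not overlap for 884 of the 952 SAN-enriched genes and for 409 of the 418 atria-enriched genes, while over all genes 20.4% had every SAN pool above every atrial pool and 19.1% the opposite. The median size of a called difference was 1.49 among genes higher in SAN and 1.43 among genes higher in atria. A log2FC above 4 in size was measured for 35 genes higher in SAN and 4 higher in atria. SAN-enriched calls also lay lower on the scale, with a median mean log2 value of 1.84, against 3.50 for the atria-enriched calls.

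All 4 pacemaker transcription factors were higher in cultured SAN than in cultured atria. SHOX2 (GRCg7b chromosome 9, 22316009 to 22320894) measured 8.09, 8.34, 8.31 and 8.35 in the vehicle SAN pools, against 2.03, 2.33, 2.35 and 2.70 in the vehicle atrial pools. The groups were far apart, and the log2FC was 5.92 ± 0.27 (SE), which corresponds to a 60.7-fold ratio of geometric means (limma adjusted p = 1.1e-13). ISL1, a factor of early sinus venosus progenitors, measured 5.85, 5.08, 5.45 and 6.04 in SAN, against 1.85, 1.53, 1.96 and 2.22 in atria (log2FC 3.72 ± 0.27). TBX3, a repressor of chamber genes, was between 6.13 and 6.35 in SAN and between 4.27 and 4.52 in atria (1.89 ± 0.15). TBX18, needed in mouse to form the sinus horns, showed the smallest gap, with 7.23, 8.17, 8.17 and 7.85 in SAN and 6.46, 6.97, 6.88 and 6.38 in atria (1.18 ± 0.24, limma adjusted p = 0.000394). For each of these factors every SAN pool was above every atrial pool. For none of them did the tissue difference change with culture at an adjusted p below 0.05 in the interaction test, which compares the difference after culture with that at t0. TBX18 was called only after culture because its log2FC at t0 was 0.86.

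HCN4, the main funny channel of the SAN, was higher in cultured SAN. HCN4 (chromosome 10, 2051611 to 2197735) measured 5.82, 5.99, 6.36 and 6.21 in SAN, against 2.63, 2.50, 2.31 and 2.36 in atria. That difference of 3.65 ± 0.19 lay beside 3.47 at t0. HCN2 and HCN3 had log2FC of 0.64 and 0.39 after culture and were not called. Of the 4 HCN channels, 3 were called higher in SAN at t0 and 1 after culture, beside 6.86% and 7.66% of all genes. For 1 of them the loss of the call passed the interaction test. The median log2FC over the 4 was 1.51 at t0 and 0.51 after culture. Under quantile normalization the median after culture was 0.05, with 3 positive and 1 negative.

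Of 126 ion channel subunits, 25 were higher in SAN and 14 higher in atria after culture, beside 7.66% and 3.36% of all genes. The calcium channel pore subunits CACNA1D (log2FC 2.86), CACNA1H (1.68) and CACNA1G (1.30), which open at comparatively low voltages, were higher in SAN at both stages. CACNA1D measured 4.79, 4.35, 5.04 and 5.74 in SAN, against 2.09, 1.82, 2.48 and 2.09 in atria, with no overlap. CACNA2D4, an auxiliary calcium channel subunit, had a larger gap of 4.17 ± 0.46. On the atrial side, KCNH7, a potassium channel of the ether-a-go-go related family, gave the largest atria-enriched difference of the whole table. KCNH7 measured 1.66, 3.02, 0.94 and 2.14 in SAN and 6.93, 7.26, 7.12 and 6.91 in atria (log2FC -5.11 ± 0.63, limma adjusted p = 7.61e-07). KCNJ3, a subunit of the acetylcholine-activated potassium channel, was lower in SAN by a log2FC of -2.75, and KCNJ11, the pore of the ATP-sensitive channel, by -2.23. Under quantile normalization the list gave 17 calls in each direction.

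Among 8 measured atrial and working myocardium genes, 5 were higher in atria after culture and none was higher in SAN. The shares over all genes were 3.36% and 7.66%. BMP10, a ligand of chamber myocardium, measured 3.36, 2.83, 2.67 and 3.87 in SAN, against values between 6.99 and 7.26 in atria (log2FC -3.90 ± 0.32). NKX2-5 measured 5.66, 6.06, 5.06 and 5.91 in SAN, against 8.89, 8.48, 8.81 and 8.92 in atria (-3.10 ± 0.38), and its difference at t0 was close by, at -3.04. The myosin light chain MYL10 (-2.15) and the connexin GJA5 (-1.34) were also lower in SAN. NPPA, which encodes atrial natriuretic peptide, had a much narrower gap after culture than before it. NPPA (chromosome 21, 5570001 to 5572642) measured 7.68, 7.33, 7.08 and 8.08 in cultured SAN, against 9.55, 9.22, 9.37 and 9.14 in cultured atria, without overlap (-1.78 ± 0.23). In t0 tissue it had been at 6.20, 5.51, 6.07 and 5.22 in SAN, against 10.74, 10.46, 10.66 and 10.11 in atria. The change of 2.96 passed the interaction test (limma adjusted p = 1.74e-06). BMP10 changed in the same direction by 1.55 (limma adjusted p = 0.0236). GJA1, also a connexin, was higher in every SAN pool than in any atrial pool after culture, but its log2FC of 0.93 missed the fold limit (0.04 at t0, interaction 0.88). HEY1, a Notch effector of atrial identity (-0.75), missed it too.

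HOX genes, which give cells their position along the body axis, were mostly higher in SAN. Of 21 measured HOX genes, 14 were higher in SAN and none was higher in atria, beside 7.66% and 3.36% of all genes. The median log2FC over the 21 was 1.92, against 0.01 over all genes. All 21 were positive on the deposited scale and 18 under quantile normalization, which also called 14. HOXA5 measured 4.74, 4.04, 4.32 and 3.57 in SAN, against -2.79, -2.22, -1.39 and -1.62 in atria (log2FC 6.17 ± 0.35). HOXA3 (5.73), HOXA4 (5.52) and HOXD8 (5.54) were also among the 12 largest SAN-enriched differences with separate pools. HOXA3, HOXA4 and HOXA5 lie within the same cluster on chromosome 2, where their annotated spans overlap in part (HOXA3 from 32490125 to 32536067, HOXA4 from 32512060 to 32514324, HOXA5 from 32525412 to 32527958), so reads may be hard to assign between them. HOXA7 stood at a smaller difference after culture (2.50) than at t0 (5.59), a change that passed the interaction test (limma adjusted p = 0.0056), with its atrial level up by 3.37 in culture.

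Apart from SHOX2 and the HOX genes, the largest SAN-enriched differences belonged to secreted factors, receptors and a homeobox gene. GDF10, a ligand of the BMP family, led the list. It measured 2.51, 3.92, 3.74 and 3.50 in SAN and -2.90, -3.29, -4.05 and -4.73 in atria (log2FC 7.16 ± 0.57, limma adjusted p = 8.43e-10), and its gap had been 3.36 at t0. GSC, the goosecoid homeobox gene, had a log2FC of 6.57 ± 0.76, with 1 atrial pool at the lowest value of the table. MMRN1, a multimerin of endothelium and platelets (5.98), and TSHR, the thyrotropin receptor (5.98), followed. GABRE, a subunit of the GABA-A receptor, measured 4.54, 4.15, 5.23 and 4.62 in SAN, against -2.19, -1.83, -1.49 and -0.40 in atria (6.11 ± 0.34). The gap of GABRE had been 4.10 at t0 and that of MMRN1 3.35, and both changes passed the interaction test. NTS, which encodes neurotensin, moved the opposite way, with a log2FC of 5.81 after culture and 7.62 at t0. CHRDL1, a secreted BMP antagonist, had similar differences of 5.87 and 5.54 at the same stages.

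Among atria-enriched genes, those after KCNH7 included guidance, junction and energy genes. NTN1, the guidance cue netrin 1, measured 2.68, 3.14, 2.90 and 1.96 in SAN, against 7.84, 6.88, 7.27 and 6.94 in atria (log2FC -4.56 ± 0.28). EDNRB, an endothelin receptor, lay between 4.52 and 4.80 in SAN and averaged 8.92 in atria (-4.29 ± 0.30). CTNNA3, the alpha-T-catenin of intercalated discs, had a log2FC of -3.87, and CKMT2, the mitochondrial creatine kinase of muscle, one of -3.91. LRFN5, a synaptic adhesion protein (-3.77), SLC24A5, a sodium, calcium and potassium exchanger (-3.77), and ZNF106, an RNA-binding zinc finger protein (-3.36), showed gaps of similar size. Every SAN pool was below every atrial pool for each of these genes, which was a condition of their choice. The 3 others of the 12 largest, MHCY15, PDE6H and FAT2, were not called at t0 and are described with the genes gained in culture.

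**Figure D1:**
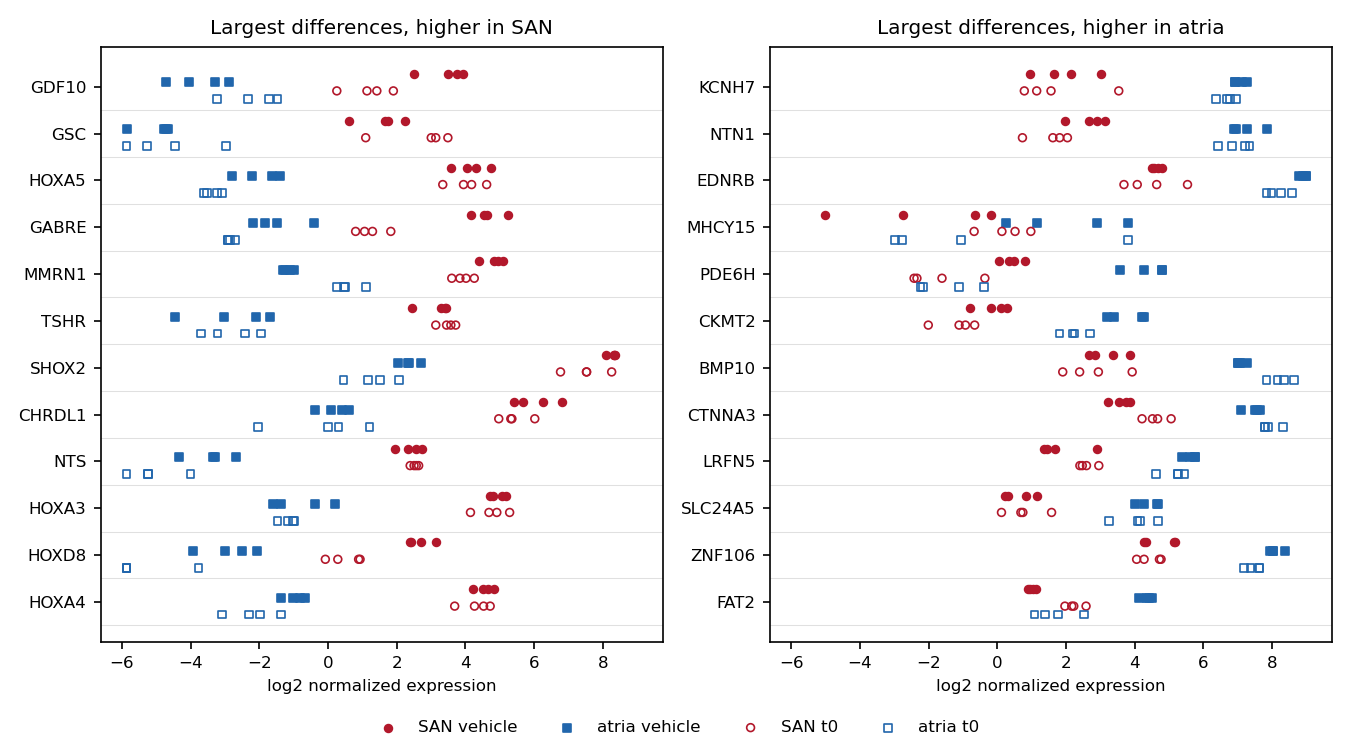
Log2 normalized expression of the 12 genes with the largest SAN-enriched (left panel) and atria-enriched (right panel) differences after vehicle culture, with 1 point per pool (SAN circles, atria squares, vehicle filled, t0 open). Filled circles and filled squares are apart for all 24 genes because separate vehicle pools were a condition of their choice. The open symbols of MHCY15, PDE6H and FAT2 mix.

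Sarcomere genes were split between the tissues. Of 53 measured, 7 were higher in SAN and 12 higher in atria. Counts in this paragraph stand beside 7.66% of all genes higher in SAN and 3.36% higher in atria. The atria-enriched members included core filament genes: MYH7, a myosin heavy chain, measured 9.66, 10.45, 10.20 and 10.66 in SAN and 12.14, 11.97, 12.01 and 11.88 in atria (log2FC -1.76 ± 0.21), and MYBPC3, myosin-binding protein C, had a log2FC of -1.28. FHL2 (-2.31), an adaptor at the Z-disc, TNNT2 (-1.09) and TNNC1 (-1.19), both troponin subunits, were lower in SAN as well. On the SAN side, MYL1, a light chain of fast muscle, measured 8.86, 8.89, 9.22 and 9.43 in SAN, against 6.48, 6.51, 6.55 and 6.43 in atria (2.61 ± 0.16). NEB, the giant filament protein nebulin (2.33), and ANKRD1, a stretch-responsive ankyrin repeat protein (2.62), were also higher. Among 21 calcium cycling genes, SLN, the calcium pump inhibitor sarcolipin, was higher in SAN (2.11), and PLN, the related inhibitor phospholamban (-1.54), and CAMK2A, a calmodulin kinase (-1.49), were lower. JPH2, a junctophilin, was called as well (-1.23), but its pools overlapped. Its adjusted p rose above 0.05, so that the call was lost, without SAN pool 1, 3 or 4 or atrial pool 1. The log2FC in those fits was between -1.25 and -0.86. The call was also lost with a pseudocount of 1 and when only the compared groups were fitted. Of 33 autonomic receptor and cAMP genes, 7 were higher in SAN and 1 in atria. PRKAR2B, a regulatory subunit of protein kinase A, had the clearest gap, at 5.04, 4.99, 5.17 and 5.49 in SAN, against -1.08, 0.25, 0.47 and -0.42 in atria (5.37 ± 0.22). ADCY8, an adenylyl cyclase, followed at 2.62, and NPR3, the natriuretic peptide clearance receptor, was lower in SAN at -2.27.

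Markers of several non-myocardial cell types differed between the tissues, while the sums of others overlapped. Over all genes, 7.66% were called higher in SAN and 3.36% higher in atria. The linear values of 12 cardiomyocyte markers summed to between 7847 and 12749 in vehicle SAN pools, against 19945 to 23491 in vehicle atrial pools, and 6 of these markers were higher in atria and none in SAN. The 18 fibroblast and mesenchyme markers summed to between 7173 and 7592 in SAN, against 4411 to 6095 in atria, with 7 called in SAN and none in atria. LUM, the matrix proteoglycan lumican, had a log2FC of 4.33, TWIST1 of 2.85 and PRRX1 of 1.98. The 21 endothelial and endocardial markers summed to between 969 and 1065 in SAN, against 602 to 745 in atria, with 9 higher in SAN and 1 higher in atria. VWF, von Willebrand factor, measured 5.27, 5.56, 5.55 and 5.65 in SAN, against 0.76, 2.14, 2.42 and 2.07 in atria (3.66 ± 0.30). At t0 the cardiomyocyte sums were likewise apart (8191 to 11978 in SAN, 19406 to 27578 in atria), and the fibroblast sums were apart as well (6005 to 6156 and 4926 to 5948). The part of cell composition in the gene differences was not tested.

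Counts in the next marker lists again stand beside 7.66% of all genes higher in SAN and 3.36% higher in atria. Of 18 macrophage and leukocyte markers, 11 were called in SAN and none in atria. All 18 had a positive log2FC (17 under quantile normalization, with 8 called). They summed to between 198 and 240 in SAN and to between 72.6 and 133 in atria. C1QB, a complement subunit made by macrophages, measured 4.75, 4.92, 5.02 and 4.97 in SAN, against 2.21, 3.41, 3.41 and 3.12 in atria (log2FC 1.88 ± 0.32). Atrial pool 1 was the lowest for C1QA, C1QB and C1QC. C1QA had a log2FC of 1.74, which was 1.35 without that pool (limma adjusted p = 0.0764), and C1QC one of 2.01, which was 1.43 without it (limma adjusted p = 0.0759). Of 14 neural crest, neuron and Schwann cell markers, 7 were higher in SAN and 1 in atria. NEFM and NEFL, both neurofilament subunits, had log2FC of 4.88 and 4.22, and ERBB3, a receptor of Schwann cell precursors, was the member higher in atria (-1.43). STMN2, a growth-associated protein of neurons, varied widely among SAN pools at 2.39, 0.40, 3.03 and -1.19, the last of which lay below the highest atrial pool. CRABP1, a retinoic acid binding protein, was also highest in SAN pools 1 and 3, at 6.59, 1.44, 5.61 and 0.20. The sums of 9 red blood cell markers overlapped, with 727 to 1815 in SAN and 182 to 1100 in atria. All 9 had a positive log2FC after culture (8 under quantile normalization), with a median of 1.21, against -0.37 at t0. Their median change with culture was -1.13 in SAN and -2.70 in atria. Of these 9, GFI1B, an erythroid transcription factor, was called (1.21), but its log2FC was -0.05 under quantile normalization. Of 11 epicardial markers, 3 were higher in SAN (TCF21, UPK1B and SEMA3D) and none in atria. The epicardial sums overlapped, with 1091 to 1317 in SAN and 862 to 1122 in atria. Smooth muscle markers gave 3 and 2 calls of 11, and their sums were apart, with 626 to 697 in SAN and 441 to 555 in atria. Among 5 markers of foreign tissues, VTN was higher in SAN (1.48), and the summed level, 840 to 1327 in SAN and 1466 to 2240 in atria, was carried mostly by APOA1, an apolipoprotein with a log2FC of -0.92.

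Calls in signaling lists are given beside the shares over all genes, 7.66% higher in SAN and 3.36% higher in atria. In the BMP, TGF-beta and ID list, 11 of 51 measured genes were higher in SAN and 8 higher in atria. BMP2 measured 7.67, 7.76, 7.99 and 8.26 in SAN, against 4.64, 4.49, 4.03 and 4.21 in atria (log2FC 3.58 ± 0.17, limma adjusted p = 1.91e-13), and ID1, a transcriptional target of BMP signaling, had a log2FC of 2.19. The BMP antagonists did not share a direction, since CHRDL1 was higher in SAN and GREM1 (-1.74) and CHRDL2 (-2.72) were higher in atria. Of 52 WNT pathway genes, 13 were higher in SAN and 2 in atria. Among them were the ligand WNT7A (3.04), the enhancer of WNT signaling RSPO2 (2.78) and the feedback inhibitor NKD1 (1.94). All 7 calls among 28 FGF pathway genes were in SAN, led by the binding protein FGFBP1 (2.96) and including the receptor FGFR3 (1.36). Among 63 axon guidance genes, 18 were higher in SAN and 3 in atria. SEMA3G (2.46), EPHA3 (2.45) and SEMA5A (2.08) were the largest in SAN, and NTN1, NRP1 (-1.54) and EPHA5 (-1.56) the 3 in atria. Of 19 Notch pathway genes, DLL1 (2.30), LFNG (1.72) and DLL4 (1.31) were higher in SAN and HES6 (-1.26) and JAG1 (-1.05) higher in atria. Retinoic acid and TALE genes gave 4 calls of 22, all in SAN: CRABP1, CRABP2, STRA6 and CYP26B1. The last of these fell short of the fold limit without SAN pool 2 (0.998), atrial pool 2 (0.92) or atrial pool 3 (0.99).

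Calls in surface, matrix, cytokine and YAP or SRF target lists likewise stand beside 7.66% of all genes higher in SAN and 3.36% higher in atria. Of 43 cadherins, protocadherins, claudins and desmosome genes, 14 were higher in SAN and 3 in atria. The SAN-enriched members included CLDN5, a tight junction claudin of endothelium (3.21), CDH17 (3.14) and PCDH8 (2.72). The 3 atria-enriched members were the desmosomal cadherins DSC1 (-2.08) and DSG2 (-1.74) and CDH13 (-1.16). Of 13 connexins, 3 were called in atria, among them GJA3 (-1.48) and GJA5, and none was called in SAN, although 5 had a positive log2FC and GJA1 missed only the fold limit. Collagens gave 6 and 2 calls of 36, with COL26A1 at 7.49, 7.37, 7.77 and 7.09 in SAN and at 3.49, 4.32, 4.56 and 3.69 in atria (log2FC 3.41 ± 0.20). Of 57 matrix remodelling genes, 11 were higher in SAN and 5 in atria, led by LUM, ADAMTS18, a secreted protease (2.63), and TNC, the matrix protein tenascin C (2.43). Integrins and laminins gave 3 calls of 30, all in SAN: LAMC3 (1.99), LAMA2 (1.20) and ITGB4 (1.16, but 0.77 and not called under quantile normalization). Cytokines, chemokines and their receptors gave 16 and 3 of 88, with IL20RA the largest in SAN (3.07). The 35 YAP-TEAD and MRTF-SRF target genes gave 9 and 3 calls. TGFBI (2.66) and TNC were higher in SAN, and FHL2, ACTG2 (-1.42) and FHL1 (-1.20) higher in atria. All of these were also called at t0, where ACTG2 had been at -3.59, FHL1 at -2.05 and FHL2 at -1.25.

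The cell cycle, respiratory chain, ribosomal protein and heat shock lists held few or no calls. Over all genes, 7.66% were higher in SAN and 3.36% higher in atria. None of 44 cell cycle genes was called, although 31 of them had a negative log2FC and their median fell with culture by 1.17 in SAN and by 1.24 in atria. PCNA, the sliding clamp of DNA replication, was between 6.50 and 6.89 in SAN and between 6.62 and 6.93 in atria. Of 83 respiratory chain genes, 82 were lower in SAN, with a median of -0.52, but only ATP5G1, a subunit of ATP synthase, was called (-1.05), and it missed the fold limit under quantile normalization and without SAN pool 1 (-0.99) or pool 3 (-0.97). Under quantile normalization 74 of the 83 were lower in SAN and the median was -0.42. Cytosolic ribosomal protein genes were lower in SAN for 64 of 65 members with a median of -0.26, but this direction was absent under quantile normalization, where 33 were positive and 32 negative. RPL3L, a form of ribosomal protein L3 found in muscle, was the only member called (-2.42). Heat shock and cochaperone genes gave 2 calls of 67, both in atria (HSPB8 and HSPB7L, the small heat shock proteins). HSPB7L missed the fold limit without SAN pool 1 (-0.98) and under quantile normalization (-0.99). Glycolysis and hypoxia response genes gave 2 calls in SAN and 4 in atria, of 37, with PFKM, the muscle phosphofructokinase, at -2.72. Sterol and fatty acid genes gave 4 and 2 of 33, led by the fatty acid binding protein FABP5 (1.85). Among 19 immediate early genes KLF2 was called (-1.08), and it missed the fold limit without SAN pool 3 (-0.98). The split between tissues moved with the scaling in several lists. Under quantile normalization the calls in SAN and in atria were 7 and 3 for autonomic receptor and cAMP genes, 13 and 6 for cadherins and claudins, 10 and 8 for cytokines, 9 and 5 for WNT genes, 3 and 1 for Notch genes, 7 and 1 for FGF genes, 4 and 0 for sterol and fatty acid genes, 1 and 1 for immediate early genes, and 4 and 2 for neural markers.

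**Figure D2:**
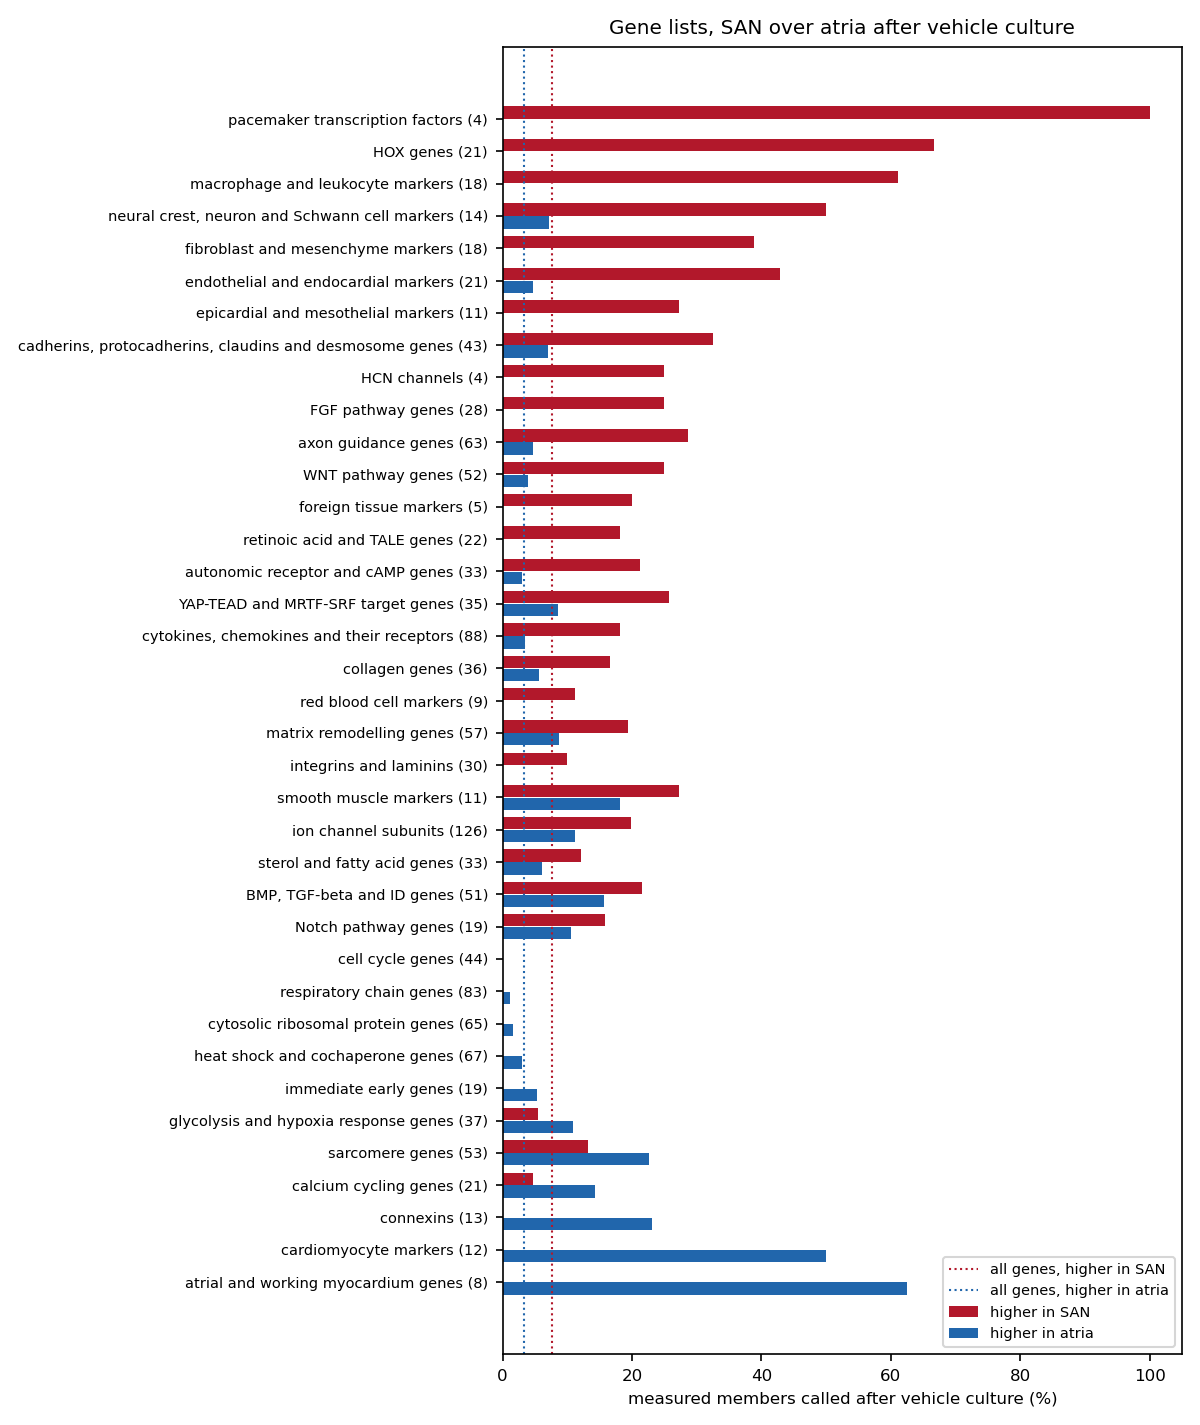
Share of the measured members of each gene list (number in brackets) that were called after vehicle culture, higher in SAN (red bars) or higher in atria (blue bars), in percent. Dotted lines mark the same shares over all 12422 genes, 7.66% and 3.36%, and HOX genes, macrophage markers and the 4 pacemaker factors extend far past the red line while 44 cell cycle genes have no bar.

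The tissue differences after culture were next divided by what they had been at t0. Of the 1370 genes called after culture, 711 (5.72% of all genes) were also called at t0 in the same direction, 529 of them higher in SAN (4.26%) and 182 higher in atria (1.47%). A further 340 (2.74%), 243 higher in SAN (1.96%) and 97 higher in atria (0.781%), were called only after culture. Their change with culture did not pass the interaction test, so they are not counted as appearing in culture. Some already differed at t0 below the fold limit, such as TBX18 (0.86, limma adjusted p = 0.00811) and EPHA5 (-0.90, limma adjusted p = 0.000722). The genes gained in culture, which were called after culture, not called at t0 and past the interaction test, numbered 306 (2.46%), with 176 higher in SAN (1.42%) and 130 higher in atria (1.05%). Of these 306, 159 (1.28%) were flat at t0, 91 in the SAN direction (0.733%) and 68 in the atrial direction (0.547%), with a log2FC below 0.5 in size and an adjusted p of at least 0.05. In the opposite direction, 213 genes (1.71%) were lost in culture, 115 of which had been higher in SAN (0.926%) and 98 higher in atria (0.789%). Lost genes were called at t0, not called after culture, and past the interaction test against their t0 direction. Some still differed below the fold limit, such as COL27A1 (1.24 at t0, 0.67 after culture) and PKP2 (-1.47 and -0.88), both with separate vehicle pools. The difference turned round in 13 genes (0.105%), 4 toward SAN (0.0322%) and 9 toward atria (0.0725%). The interaction test itself called 1613 genes (13.0%), 856 toward SAN (6.89%) and 757 toward atria (6.09%). Both stages of a class enter its definition, so sizes within a class are descriptions and lean large.

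**Figure D3:**
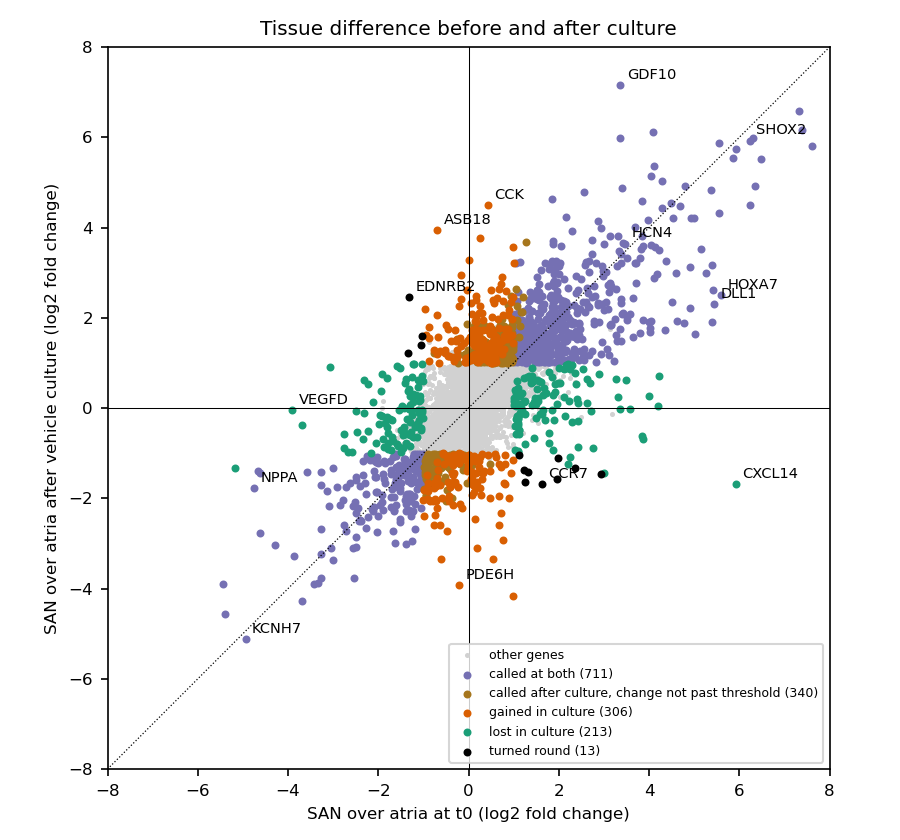
Log2 fold change of SAN over atria at t0 (horizontal axis) and after vehicle culture (vertical axis), with 1 point per gene. Coloured points mark the classes with their counts (711 called at both, 306 gained, 213 lost, 13 turned round), and the gained genes lie in a band above and below 0 on the horizontal axis.

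Among the 10 SAN-enriched genes with the largest interaction were CCK, CHGA, SYP and CHRNA7. CCK, the peptide hormone cholecystokinin (chromosome 2, 43744184 to 43748969), measured 4.42, 4.43, 3.80 and 4.54 in vehicle SAN, against 0.19, -0.30, 0.19 and -0.86 in vehicle atria (log2FC 4.49 ± 0.38). At t0 the groups overlapped, with 0.54, 0.44, 0.49 and 1.28 in SAN and 0.18, -0.24, -0.67 and 1.76 in atria, and the interaction was 4.06 (limma adjusted p = 1.67e-05). CHGA, a protein of secretory granules, measured 3.79, 3.08, 4.59 and 0.70 in vehicle SAN and stayed at or below 0.01 in vehicle atria (3.57 ± 0.55), so that SAN pool 4 lay well below the other SAN pools. At t0 its pools were already apart, between -0.55 and 0.66 in SAN and between -1.29 and -0.76 in atria (log2FC 0.99). SYP, the synaptic vesicle protein synaptophysin, had a log2FC of 2.27 after culture and -0.20 at t0. CHRNA7, a nicotinic acetylcholine receptor subunit, measured 1.81, 1.98, 2.49 and 2.69 in vehicle SAN, against -2.79, -0.90, -1.23 and -1.15 in vehicle atria, having been between 1.46 and 2.32 in all 8 t0 pools. NPY, a neuropeptide chosen after its values had been seen, gave 2.63 after culture and 0.67 at t0. None of the 14 listed neural crest, neuron and Schwann cell markers was gained in either tissue, a class that excludes markers already called at t0. Of those, NEFL widened from 2.17 at t0 to 4.22 and NEFM from 3.40 to 4.88. Their interactions were 2.06 and 1.49 (limma adjusted p = 0.000169 and 0.00887). No other called member of the list passed the interaction test.

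The largest interaction among the SAN-enriched genes belonged to ASB18, an ankyrin repeat protein of the SOCS box family. It measured 2.36, 2.68, 2.59 and 2.26 in vehicle SAN, against -1.14, -0.95, -2.76 and -1.03 in vehicle atria, while at t0 it lay between 0.00 and 0.22 in SAN and between 0.26 and 1.73 in atria (interaction 4.64, limma adjusted p = 1.19e-05). LCN15, a lipocalin, stood at the lowest value in all 8 t0 pools and was measured in every vehicle pool, at 3.43, 2.25, 1.74 and 2.06 in SAN and 0.66, -0.36, -2.95 and -0.97 in atria. ETV4, a transcription factor downstream of FGF signaling, was higher in vehicle SAN by 1.56 ± 0.11, whereas at t0 it had been lower in SAN (-0.87). CCN2, a matrix protein and known YAP target, followed the same course, at 7.61, 7.15, 7.12 and 6.45 in vehicle SAN and 5.22, 5.70, 6.11 and 4.88 in vehicle atria (1.61 ± 0.22), with -0.95 at t0. RBM44 (1.79) and ADAD1 (2.07), both RNA-binding proteins best known from germ cells, completed the 10 largest.

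Among the 10 atria-enriched genes with the largest interaction were BLB2, BLB1, IRF9, TAGAP and MHCY15. BLB2 and BLB1, the beta chains of chicken MHC class II, lie on chromosome 16 (2192787 to 2194303 and 2185532 to 2187356). BLB2 measured 3.04, 3.77, 2.56 and 2.90 in vehicle SAN, against 6.40, 5.97, 5.75 and 6.52 in vehicle atria (log2FC -3.09 ± 0.29), and at t0 it lay between 1.35 and 2.20 in SAN and between 1.32 and 2.21 in atria. BLB1 gave -2.59 after culture and 0.67 at t0. Since BLB1 and BLB2 are near-identical paralogs, reads may be divided between them arbitrarily. IRF9, a transcription factor of the interferon response, measured 3.72, 4.10, 3.56 and 3.86 in vehicle SAN, against 5.96, 5.58, 5.83 and 5.71 in vehicle atria (-1.96 ± 0.14), with 0.67 at t0. TAGAP, a GTPase-activating protein of T cells, gave -2.93 after culture and 0.76 at t0. MHCY15, from the MHC-Y region, had the largest interaction (-5.17) but also the widest spread, at -0.20, -0.65, -5.01 and -2.75 in vehicle SAN and 3.79, 2.91, 0.24 and 1.15 in vehicle atria, and it too belongs to a multigene family. Of 37 measured genes on chromosome 16, 4 were gained in the atrial direction and none in the SAN direction, beside 1.05% and 1.42% of all genes, but this count was made on the genes that prompted it and includes BLB1 and BLB2. Of the 88 listed cytokines, chemokines and receptors, none was gained in atria and 1 in SAN (TNFRSF1B). That class excludes members already called at t0. Of those, 3 higher in SAN and 2 higher in atria were lost, and CCR7 turned round, from 1.63 at t0 to -1.69. None of the 18 macrophage and leukocyte markers was called higher in vehicle atria. CD74 (0.32), a class II chaperone, and B2M (0.13), the class I light chain, were not called. Which cells carried the difference in the MHC genes was not tested.

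The other atria-enriched genes of the 10 largest were PDE6H, FAT2, CER1, VWC2 and IBSP. PDE6H, an inhibitory subunit of the photoreceptor phosphodiesterase, measured 0.35, 0.81, 0.48 and 0.06 in vehicle SAN and 4.78, 4.27, 3.56 and 4.78 in vehicle atria (log2FC -3.92 ± 0.56), with all 8 t0 pools below 0. FAT2, an atypical cadherin, measured 0.95, 0.90, 1.12 and 1.02 in vehicle SAN, against 4.49, 4.43, 4.13 and 4.36 in vehicle atria (-3.35 ± 0.42), with a t0 difference of 0.55. CER1, the secreted antagonist cerberus, was at -3.98 or lower in every t0 pool and reached between 0.05 and 1.32 in vehicle SAN and between 1.95 and 3.23 in vehicle atria. VWC2, a secreted BMP antagonist, lay between -0.53 and 0.61 in vehicle SAN and between 1.75 and 2.29 in vehicle atria, and IBSP, a bone sialoprotein, had a log2FC of -3.35.

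**Figure D4:**
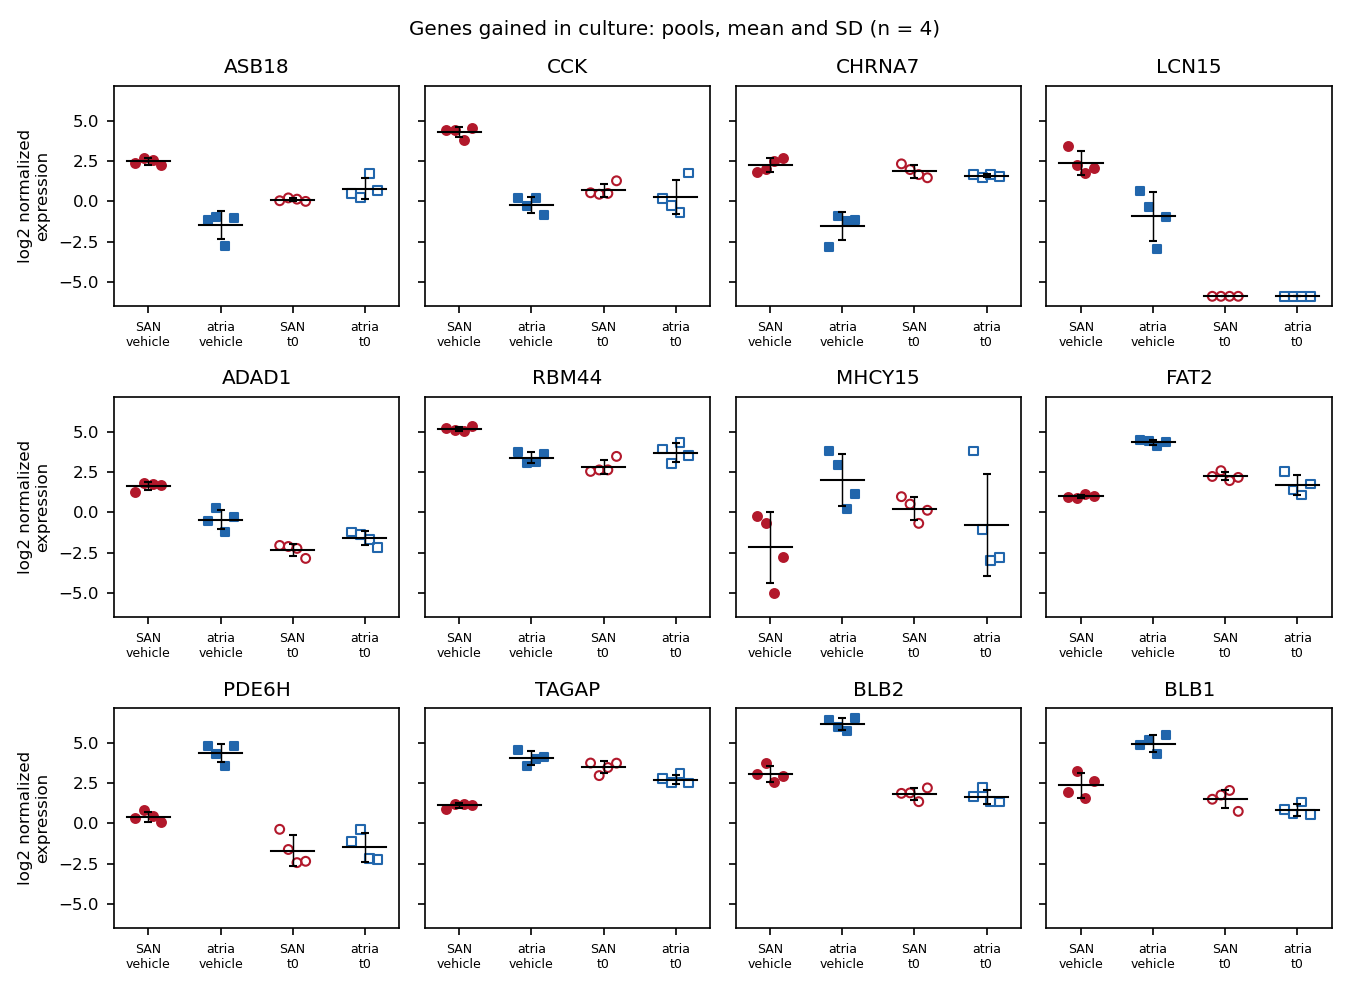
Log2 normalized expression of the 6 genes with the largest interaction gained in SAN (ASB18 to RBM44) and the 6 gained in atria (MHCY15 to BLB1), with 1 point per pool, the mean as a line and the SD as a bar (n = 4 pools per group). Vehicle SAN and vehicle atria pools are apart in every panel because the genes were chosen for that. The t0 pools lie close together in most panels, and all 8 t0 pools of LCN15 lie at -5.87.

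Gained genes were also found in the lists, beside 1.42% of all genes gained in SAN and 1.05% gained in atria. In the ion channel list, 3 genes were gained in SAN (KCND2, KCNJ15 and PIEZO2) and 3 in atria (KCNJ12, SCN4B and KCNC4). KCNJ12, an inward rectifier of working myocardium, measured 3.26, 2.98, 3.01 and 2.37 in vehicle SAN, against 6.09, 5.28, 5.10 and 5.51 in vehicle atria (log2FC -2.59). Its t0 difference was -0.63 (limma adjusted p = 0.00721), so its gap widened. SCN4B, a sodium channel beta subunit, gave -1.77 (0.24 at t0). KCNJ15, also an inward rectifier, gave 2.33 in SAN and 0.05 at t0. PIEZO2 gave 2.17 and had already been at 0.90 at t0 (limma adjusted p = 0.00202), so its gap widened. Of the 7 sarcomere genes higher in vehicle SAN, 5 were gained: ANKRD1, NEB, TPM1 (1.62), TNNI2 (1.52) and CSRP3 (1.06). NEB had been at 0.57 at t0 (limma adjusted p = 0.0194), so its gap widened. TPM1, which encodes tropomyosin, lay between 9.05 and 9.23 in vehicle SAN and between 7.28 and 7.88 in vehicle atria. None of the 53 sarcomere genes was gained in atria. Of 35 YAP-TEAD and MRTF-SRF target genes, 3 were gained in SAN (ANKRD1, CCN2 and ACTA2) and none in atria. At t0 ANKRD1 had been at 0.49, ACTA2 at 0.51 (limma adjusted p = 0.0495) and CCN2 at -0.95. A gene gained in SAN need not have risen there. With culture, ANKRD1 and CCN2 changed by 1.34 and 2.24 in SAN, but ACTA2 by -1.10 in SAN and -2.01 in atria. Of the FGF pathway, 4 genes were gained in SAN (FGF12, ETV4, ETV1 and SPRY2), and of axon guidance 6 (EPHA3, EFNA2, PLXNA2, SEMA3D, NTNG2 and NTNG1). At t0, EPHA3 (0.98), EFNA2 (0.88), PLXNA2 (0.66), NTNG1 (0.59), SPRY2 (0.56) and ETV1 (0.32) leaned toward SAN with a limma adjusted p below 0.05. Those gaps widened in culture, whereas FGF12 (0.16), SEMA3D (-0.29), NTNG2 (-0.40) and ETV4 (-0.87) had no such lead in SAN at t0. Endothelial markers gained in SAN were SOX18 (2.47, with 0.17 at t0), TIE1 (1.37), CDH5 (1.23) and EGFL7 (1.12). The last 3 had been at 0.14, 0.32 and 0.59 at t0, and EGFL7 had a limma adjusted p of 1.52e-05 there. APLNR, of the same list, moved toward atria, from 1.23 at t0 to -1.38 (interaction -2.61, limma adjusted p = 8.57e-06). Of the 21 markers, 15 were positive and 6 negative after culture. The endothelial marker sums were apart after culture, as given above, but overlapped at t0, with 1137 to 1608 in SAN and 1007 to 1302 in atria, and the part of this in the 4 gained markers was not tested.

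The level that moved was more often the atrial level. Culture itself changed 1690 genes in SAN (13.6%) and 2380 genes in atria (19.2%), at the same thresholds. Among the 176 genes gained in SAN, the SAN level rose in 46 and fell in 7, while the atrial level rose in 8 and fell in 83, and the median change was 0.23 in SAN and -0.99 in atria. Over all genes, 8.01% rose and 5.59% fell in SAN, and 10.1% rose and 9.02% fell in atria. Among the 130 genes gained in atria, the SAN level rose in 25 and fell in 10, while the atrial level rose in 86 and fell in none, with median changes of 0.05 in SAN and 1.44 in atria. The change in atria was larger in size than that in SAN for 116 of the 176 and for 108 of the 130. CHRNA7 is an example of a gained difference through the atria, with a change of 0.39 in SAN and -3.12 in atria, and CCK of one through the SAN, with 3.61 in SAN and -0.45 in atria. These culture changes share their libraries with the choice of the genes and are given as a description.

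**Figure D5:**
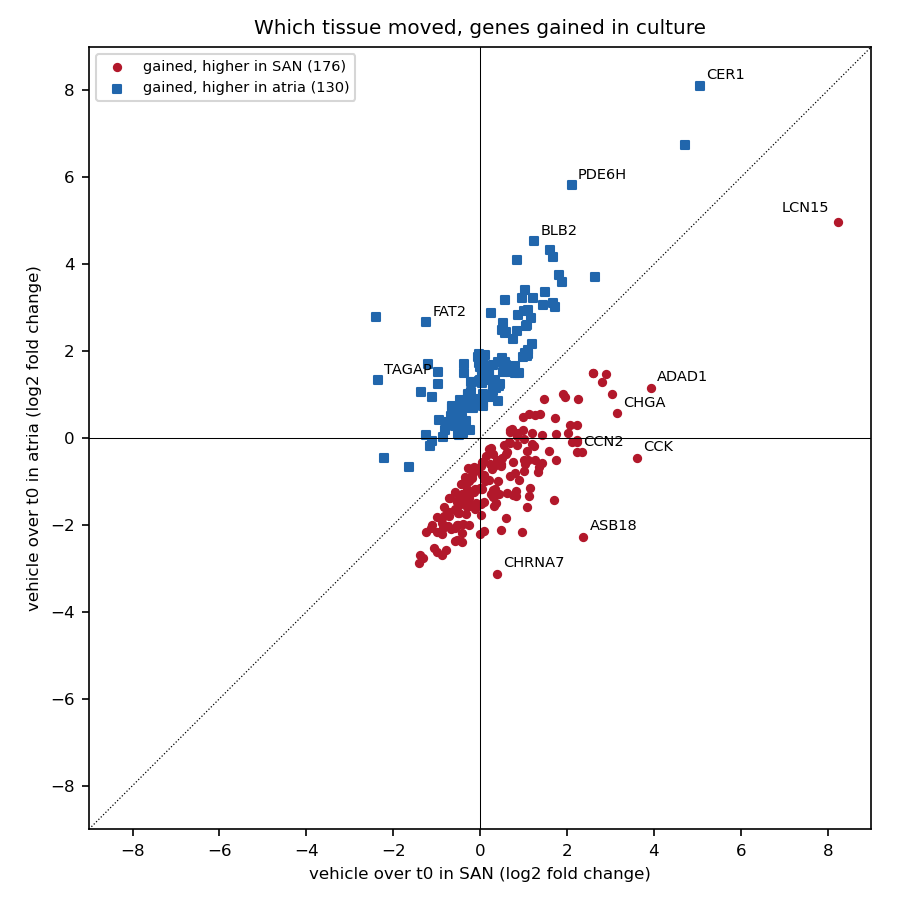
Log2 fold change of vehicle over t0 in SAN (horizontal axis) and in atria (vertical axis) for the 176 genes gained in SAN (red circles) and the 130 gained in atria (blue squares). By definition the colours lie on opposite sides of the dotted line of equal change, and most points are farther from 0 vertically than horizontally.

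Among genes lost in culture the larger median change was again that of the atrial level. For the 115 genes that had been higher in SAN, the median change with culture was 0.13 in SAN and 1.76 in atria, and the atrial level rose in 85. ALOX5, the 5-lipoxygenase, measured 4.36, 4.29, 4.51 and 4.53 in vehicle SAN and 5.35, 4.72, 4.84 and 5.50 in vehicle atria, but at t0 it had lain between 4.49 and 5.15 in SAN and between 0.84 and 1.07 in atria (interaction -4.54, limma adjusted p = 1.56e-10). CXCL14, a chemokine, had the largest interaction, -7.62, with vehicle SAN pools spread over 4.64, 3.26, 2.21 and 0.74 and vehicle atrial pools between 4.08 and 4.78. MSX2, a homeobox gene induced by BMP, had a log2FC of 0.04 after culture and 4.19 at t0, and SLC6A4, the serotonin transporter, of -0.03 and 3.57. PDIA2, a protein disulfide isomerase (-0.88 and 2.76), and BGN, the proteoglycan biglycan (0.72 and 4.22), also belonged to the 6 largest. For the 98 genes that had been higher in atria, the median change was 0.31 in SAN and -1.01 in atria, and the SAN level rose in 26 while the atrial level fell in 49. VEGFD, a lymphangiogenic growth factor, measured 3.46, 3.29, 3.55 and 3.39 in vehicle SAN and 3.08, 3.97, 3.07 and 3.74 in vehicle atria, after a t0 log2FC of -3.90. BHMT2, a methyltransferase (-0.38 after culture, -3.68 at t0), and SEMA3C, a guidance cue of outflow and atrial tissue (0.63 and -2.31), were also among the lost genes. So were LY6CLEL, WSCD2 and UPP1.

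In 13 genes the tissue difference turned round, 4 becoming SAN-enriched and 9 atria-enriched. EDNRB2, an endothelin receptor, measured 4.94, 5.04, 5.08 and 5.71 in vehicle SAN, against 3.28, 2.08, 2.38 and 3.21 in vehicle atria (log2FC 2.45 ± 0.30), and 0.69, 0.76, 0.12 and 0.49 in t0 SAN, against 2.14, 1.94, 1.31 and 1.93 in t0 atria (-1.32). CDO1, a cysteine dioxygenase (1.21), KCNK2, a mechanosensitive potassium channel (1.39), and SUSD5 (1.59) were the other SAN-enriched genes after culture. On the atrial side, STAB2, a scavenger receptor of sinusoidal endothelium, measured 2.04, 2.33, 2.85 and 2.35 in vehicle SAN and 3.79, 3.54, 3.82 and 3.72 in vehicle atria (-1.33), having been at 2.35 in the SAN direction at t0. APLNR, the apelin receptor (-1.38 after culture), CCR7, a chemokine receptor (-1.69), COL8A1, a short-chain collagen (-1.58), and PAPPA2, a protease of growth factor binding proteins (-1.47), followed the same course. AMER2, PROKR1 and NEURL1 were also among them. CDO1 missed the fold limit after culture without atrial pool 2 (0.99), PROKR1 without atrial pool 1 (-0.95), and NEURL1 without SAN pool 4 (-0.77), SAN pool 3 (-0.99) or atrial pool 1 (-0.92). KCNK2 had a log2FC of 0.70 under quantile normalization and 0.56 with a pseudocount of 1, and was called in neither. NEURL1 was not called with that pseudocount either (-0.91).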

How the data were processed

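Whole SAN and atrial tissue from HH30 chick embryos was profiled by stranded total RNA-seq after removal of ribosomal RNA, with 24 libraries in 6 groups of 4 pools. The authors quantified reads with Kallisto and filtered genes with edgeR before testing with limma, against GRCg7b per the submitters' processing notes. They deposited 1 table of normalized log2 expression values. The normalization behind these log2 values is not given in the sources used here, no counts or depths come with the table, and no interval from counting error can be given. The table was the only source of values, and 1 unnamed row, which made up 6.58 to 17.9% of the linear sum of a library, was left out, so that 12422 genes remained. Of these, 12213 matched a RefSeq GRCg7b symbol, which gave the coordinates.

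Group means were fitted to all 24 libraries with limma 3.58.1 in R 4.3.3 (18 residual degrees of freedom, empirical Bayes with a mean-variance trend), with Benjamini-Hochberg adjustment over all genes. Contrasts were SAN over atria after vehicle culture, SAN over atria at t0, the change of that difference (interaction), and vehicle over t0 in each tissue. Calls required an adjusted p below 0.05 and, save for the interaction, a log2 fold change larger than 1 in size. The fit was tested on simulated data with 200 changed genes. Named genes were the 12 largest calls per direction with pools that do not overlap, the 10 largest interactions per direction among gained genes, the 6 largest per direction among lost genes, all genes that turned round, and the largest calls of each list. Other list members named in the text, and the MHC and neuronal groups, were chosen after their values were seen. Members and gene lists were chosen with earlier results of these data known. Lists are described by counts and medians, with no test. Pool numbers were not used to pair tissues, since no label says that a number marks shared embryos. Deviations of same-numbered SAN and atrial pools correlated at 0.112, 0.292, 0.188 and 0.496 at t0, where each pool was closest to its own number, but not in this way after vehicle culture. The alternatives were other scalings, pseudocount, filter, spread estimate, fold limit, pool number as a block and each library left out. Marker sums are sums of 2 to the power of the log2 values. Promoter sequences were not used here, and some genes are not reported here.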

Additional observations from a re-analysis of the deposited data

Results flagged for a closer look

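In 8 of 160 groups of 4 vehicle pools examined among named genes, 1 pool lay apart from the other 3 by more than the 95% limit of Dixon's test, and chance gives about 1 in 20. Among SAN vehicle pools these were SHOX2 at 8.09, TSHR at 2.45, CCK at 3.80, BGN at 2.65 and PROKR1 at 4.47. Among atrial vehicle pools they were ASB18 at -2.76, GSC at -5.87, the lowest value of the table, and SYP at 0.75. None of these pools overlapped with the other tissue for SHOX2, TSHR, CCK, ASB18, GSC, SYP and PROKR1. Except for PROKR1, these genes belong to sets chosen for separate vehicle pools.

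The tissue difference changed with culture for the 306 genes gained, the 213 lost and the 13 that turned round. Among the leading and pacemaker genes, the interaction also passed an adjusted p of 0.05 in limma. It moved toward SAN for GDF10 (3.80), NPPA (2.96), MMRN1 (2.63), GABRE (2.02), BMP10 (1.55) and GJA1 (0.88). It moved toward atria for MHCY15 (-5.17), FAT2 (-3.90), PDE6H (-3.71), NTS (-1.81) and LRFN5 (-1.23).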

How the results depend on the processing

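Of 173 named genes, 153 were called after culture. Of these, 134 kept their call under the other scalings, pseudocount, filter, spread estimates, pool block and each vehicle library left out. Genes removed by the filter were not scored under it. Named genes were not scored under other fold limits or with t0 libraries left out. The counts after culture (952 higher in SAN, 418 in atria) became 719 and 630 under quantile normalization, where 7 genes turned toward SAN, and 944 and 425 under median centring. Quantile normalization shared 1086 of the 1370 calls and 259 of the 306 gained genes, and it turned the sign of GFI1B (-0.04837). With a pseudocount of 1, the calls in SAN were 604, those shared with t0 302 and those turned toward SAN 1. Without a fold limit the counts for SAN and atria were 2828 and 2461 after culture, 370 and 312 gained, 353 and 302 gained and flat at t0, 1472 and 1291 shared, 197 and 200 lost, and 88 and 74 turned. With limma's treat against a log2 fold change of 1 they were 279 and 133 after culture, 81 and 55 gained, 28 and 17 flat, 148 and 50 shared, 53 lost in atria, and 0 and 0 turned. Leaving out single pools gave 878 to 992 and 402 to 444 calls, 152 to 196 and 111 to 132 gained, 78 to 110 and 56 to 71 flat, 486 to 535 and 167 to 199 shared, 104 to 123 and 83 to 103 lost, and 2 to 7 and 8 to 13 turned. The SAN turned count was 7 without SAN vehicle pool 1 or 4 or atrial vehicle pool 2, and 2 without SAN t0 pool 2. With pool number as a replicate block, 956 and 418 genes were called and 200 and 143 gained, no named gene's call changed, and 128 and 109 were lost. Vehicle pools of the same number correlated at 0.148, 0.0545, 0.202 and 0.0602, with no pool closest to its own number, whereas t0 pools, which also enter the gained, lost and turned counts, each lay closest to their own number. The cause of these shifts was not tested. Depth is unknown, so values near the floor carry an error that cannot be stated. Promoter motifs were not run.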

Other observations

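The mean log2 value of 7 W-linked genes, carried by female chicks only, varied among pools of both tissues. It was 4.68, 5.15, 5.61 and 5.89 in vehicle SAN pools, against 5.37, 5.74, 5.34 and 3.77 in vehicle atrial pools. At t0 it was 6.47, 5.96, 6.23 and 4.88 in SAN, against values between 5.31 and 6.51 in atria. The ranges of the tissues overlapped at both stages. Of 581 measured Z-linked genes, 36 were higher in vehicle SAN and 27 higher in vehicle atria, where 7.66% and 3.36% of all genes were.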
